A study of Mus musculus with 19 samples.

Results

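The mRNA levels of 9 genes of glycogen and lactate metabolism were followed in hippocampal astrocytes. *Pygb*, *Pygm*, *Gys1*, *Gbe1*, *Ppp1r3c*, *Ldha*, *Ldhb*, *Aldoc* and *Pfkfb3* were picked by symbol from the deposited table of normalized mRNA levels, taking the entry with the highest total where a symbol stood on more than 1 entry. All 9 were found among 60567 listed genes, of which 25896 carry a symbol. RNA was sequenced from hippocampal cells of male mice on a C57bl6 background, isolated by FACS at 9 months of age. GFP+ astrocytes formed 3 groups, with 7 samples of WT-GFP, 4 of APP-GFP and 5 of APP-SOCS3 mice. WT-GFP mice were wildtype and received an AAV encoding GFP, APP-GFP mice were APP/PS1dE9 transgenics, which express mutant forms of the amyloid precursor protein and presenilin 1, with the same vector, and APP-SOCS3 mice were APP/PS1dE9 transgenics with AAV encoding SOCS3 and GFP at an equal total viral load. Vectors were injected at 3 to 4 months of age. Cells without GFP from 3 WT-GFP samples form the fourth group (GFP- cells), which still holds astrocytes that the virus did not reach. The vectors used gfaABC1D, a synthetic promoter derived from that of GFAP, so GFP+ cells are the infected astrocytes around the injected CA1 region and not all hippocampal astrocytes. The study gives the astrocyte groups as numbers of mice and also says that the hippocampi of a mouse were sorted separately, while the labels do not name the mouse of a sample. If samples share a mouse, the *p* values below measure the spread between samples, which may be partly technical.

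Astrocytes hold most of the glycogen of the brain. Glycogen synthase (*Gys1*) and the branching enzyme (*Gbe1*) build the polymer, phosphorylases (*Pygb*, the brain isozyme, and *Pygm*, the muscle isozyme) release glucose units from it, and *Ppp1r3c* encodes PTG, a subunit that brings protein phosphatase 1 to glycogen and favours synthesis. Aldolase C (*Aldoc*, also used as an astrocyte marker) is a glycolytic enzyme, PFKFB3 makes the activator of phosphofructokinase, and lactate dehydrogenase, assembled from LDHA and LDHB subunits, interconverts pyruvate and lactate, which astrocytes can pass to neurons.

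Each sample had 19331876 to 32621917 reads on genes, and the normalized level of 1 read was 0.756 to 1.18, so that sampling of reads is a small part of the error for these 9 genes. WT-GFP astrocytes had reads on 15575 to 25514 genes, APP-GFP astrocytes on 16471 to 25273, APP-SOCS3 astrocytes on 22050 to 26757 and GFP- cells on 30807 to 31897. All 10 astrocyte markers were higher in GFP+ than in GFP- cells of the WT-GFP group, and all 10 microglial and all 10 endothelial markers were lower. Of 8 oligodendrocyte markers, 4 were higher and 4 lower in GFP+ cells, and their sum was 4961 to 7349 in WT-GFP and up to 19306 in APP-GFP astrocytes, against 2591 to 3360 in GFP- cells. *Socs3*, the gene that the second vector encodes, was at 13296 to 37750 in APP-SOCS3 astrocytes, at 458 to 1208 in WT-GFP astrocytes, at 438 to 1639 in APP-GFP astrocytes and at 10320 to 17689 in GFP- cells. Endothelial markers summed to 1114 to 6159 in APP-SOCS3 astrocytes (median 1887), against 3952 to 39532 with WT-GFP (median 11125) and 5559 to 31006 with APP-GFP (median 12294). GFP- cells held 125567 to 202949, and none of these 10 markers was at 0 in all samples of a group.

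Divided by the length of the merged exons, the levels in WT-GFP astrocytes spanned a wide range. *Aldoc* was highest at 113473 ± 22315 per kb (SD, n = 7), followed by *Ldhb* at 21753 ± 4349 per kb and *Ldha* at 5325 ± 1236 per kb. *Pygb* (2782 ± 896 per kb), *Pygm* (2037 ± 1119 per kb) and *Ppp1r3c* (1873 ± 529 per kb) formed a middle tier, and *Gys1* (207 ± 67.9 per kb), *Gbe1* (172 ± 45.3 per kb) and *Pfkfb3* (83.6 ± 42.3 per kb) a low one. The sample ranges did not overlap between *Aldoc* and *Ldhb*, between *Ldhb* and *Ldha*, or between *Ppp1r3c* and *Gys1*. All the other neighbours in this order overlapped. Lengths are those of GENCODE M21, whereas reads were counted on constitutive regions only, so the order is approximate. The order was the same in APP-GFP and APP-SOCS3 astrocytes except that *Ppp1r3c* stood above *Pygm*. In GFP- cells *Ldha* led at 6882 ± 619 per kb (n = 3), ahead of *Aldoc* at 3614 ± 2768 and *Ldhb* at 3276 ± 1160 per kb, whose ranges overlapped, and *Gbe1* (363 ± 27.4 per kb) lay above *Gys1* (103 ± 50.3 per kb). In each GFP+ sample *Aldoc* ranked between 3 and 5 among all genes by normalized level and took 1.11 to 1.85% of the total.

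**Figure D1:**
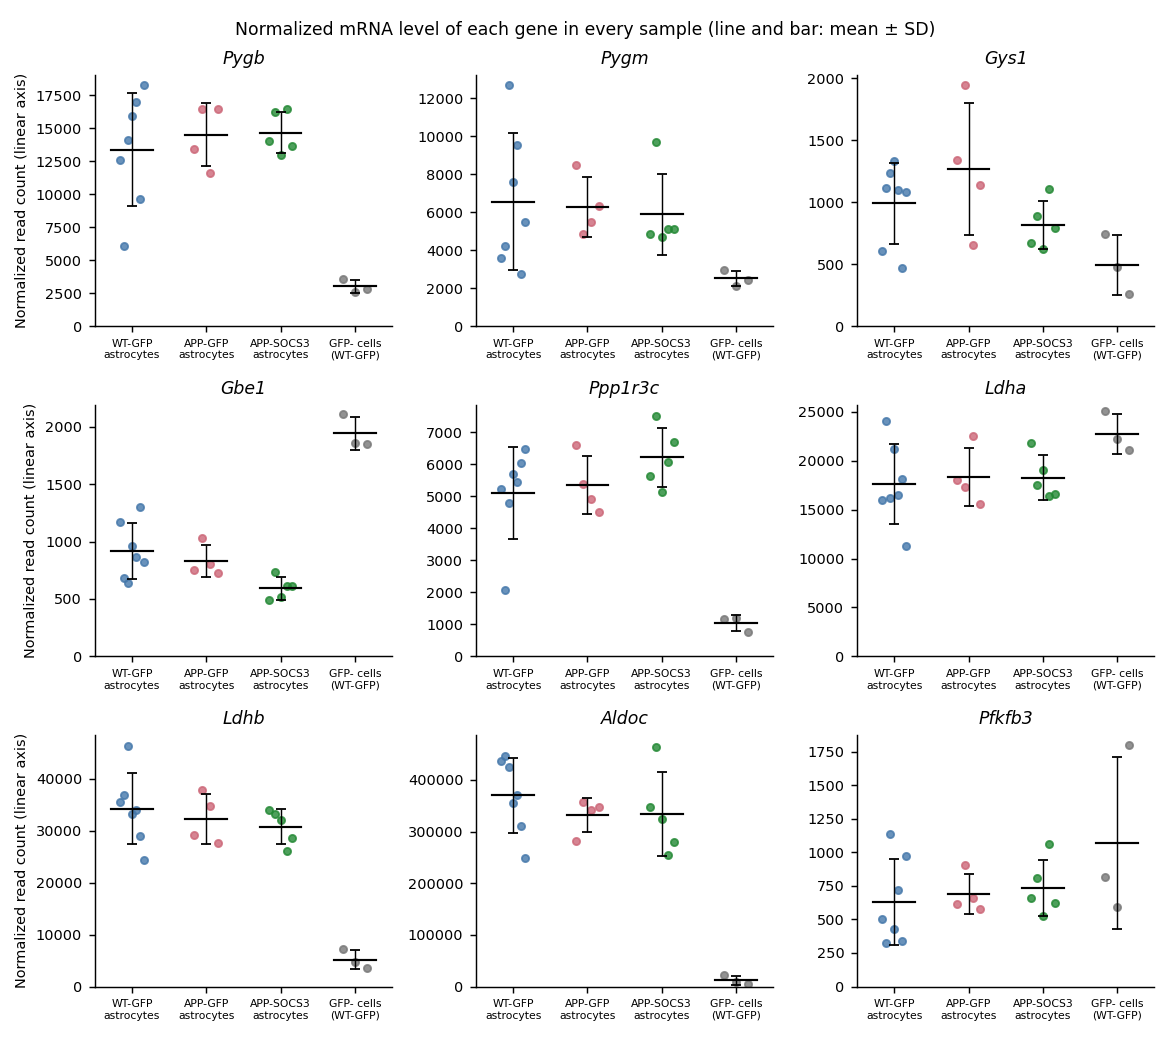
Normalized read count (vertical axis, linear, from 0) of each gene in every sample, with 1 panel per gene and 1 column each for WT-GFP astrocytes (7 samples), APP-GFP astrocytes (4), APP-SOCS3 astrocytes (5) and GFP- cells (3); points are samples, lines means and bars SD. *Aldoc*, *Ldhb*, *Pygb* and *Ppp1r3c* are lower in all 3 GFP- samples than in every WT-GFP astrocyte sample, *Gbe1* is higher in all 3, and the astrocyte groups overlap for every gene.

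The first comparison, GFP+ astrocytes against GFP- cells of WT-GFP mice, asks which of these genes the sorted astrocytes held at a higher level. A gene was called where limma gave an unadjusted *p* no higher than 0.05 together with a 1.5-fold or larger change. By this rule 6 of the 9 genes were called higher in astrocytes and 1 was called lower, and 5 of these 7 had an adjusted *p* under 0.05. Of the 26709 genes tested, 9.25% were called higher and 33.5% were called lower. The 9 genes were chosen with earlier results of these data known, so their counts beside these shares are a description. Groups did not overlap for 5 of the 9 genes and for 34.8% of all genes tested. The median log2 difference of all genes tested was -1.31, and that of the 9 genes was 1.21. The median of all genes depended on the tool and scaling. It was -0.37 with edgeR, -0.67 with DESeq2 and -1.74 with equal upper quartiles. It depended as well on the value added before taking logs, at -1.73 with 0.1 and -0.78 with 10 in place of 1. In these bulk samples fewer cells of a type and less RNA per cell cannot be told apart.

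Among the phosphorylases, *Pygb* (chr2:150786761-150831750 on mm10, plus strand) was at 6112 to 18282 in WT-GFP astrocytes, with a median of 14140. In GFP- cells it was at 3585, 2591 and 2853. Every astrocyte sample was above every GFP- sample, and the difference was 2.08 ± 0.31 on the log2 scale (SE), a 4.24-fold higher level (limma, adjusted *p* = 0.000467). An entry without a symbol lies inside *Pygb* (chr2:150814352-150817312) with a mean level of 2004 over the 19 samples. Its reads and those of *Pygb* may not be fully separable, since the library preparation as described names no step that keeps the strand. *Pygm* (chr19:6384408-6398464, plus strand) was at 2726 to 12718 in WT-GFP astrocytes, with a median of 5493, and at 2954, 2123 and 2454 in GFP- cells. The lowest astrocyte sample lay below the highest GFP- sample. *Pygm* was called higher by 1.21 ± 0.43 (limma, adjusted *p* = 0.0517). Its call was lost without GFP- replicate 2, where the unadjusted limma *p* was above 0.05 although the difference, at 1.096, was close to that over all samples.

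Genes of glycogen synthesis did not move together. *Ppp1r3c* (chr19:36731732-36736653, minus strand) was at 2075 to 6472 in WT-GFP astrocytes, with a median of 5447, and at 1171, 1205 and 754 in GFP- cells. The groups did not overlap, and the difference was 2.25 ± 0.33, or 4.74-fold (limma, adjusted *p* = 0.000431). *Gys1* (chr7:45434839-45456629, plus strand) was at 468 to 1335 in WT-GFP astrocytes, with a median of 1094, and at 743, 475 and 262 in GFP- cells. These ranges overlapped. *Gys1* was called higher by 1.04 ± 0.41 (limma, adjusted *p* = 0.0737). The call was lost without GFP- replicate 2 (1.08) and without GFP- replicate 3 (0.65). The entry of *Ruvbl2* (chr7:45421854-45438096), with a mean level of 1902 over the 19 samples, overlaps the start of *Gys1*. Reads of *Ruvbl2* and those of *Gys1* may not be fully separable. *Gbe1* (chr16:70313949-70569720, plus strand) was the only gene of the 9 called lower. It was at 643 to 1299 in WT-GFP astrocytes, with a median of 868, and at 2112, 1862 and 1853 in GFP- cells. All 7 astrocyte samples lay below all 3 GFP- samples, and *Gbe1* fell by 1.12 ± 0.25 on the log2 scale, a 2.17-fold lower level (limma, adjusted *p* = 0.00639).

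The glycolytic genes gave the largest difference and one that was not called. *Aldoc* (chr11:78323073-78327785, plus strand) was at 248624 to 447117 in WT-GFP astrocytes, with a median of 370785, and at 21678, 9725 and 3976 in GFP- cells. The difference was 5.27 ± 0.40, or 38.6-fold (95% CI 20.9 to 71.1; limma, adjusted *p* = 7.22e-06). *Pfkfb3* (chr2:11471433-11554077, minus strand) was at 325 to 1135 in WT-GFP astrocytes, with a median of 505, and at 817, 595 and 1800 in GFP- cells. The groups overlapped. Its log2 difference was -0.75 (95% CI -1.81 to 0.30; limma, adjusted *p* = 0.249).

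The lactate dehydrogenase genes differed from each other. *Ldhb* (chr6:142490250-142507958, minus strand) was at 24322 to 46240 in WT-GFP astrocytes, with a median of 33931, and at 7165, 4631 and 3632 in GFP- cells. It was higher in every astrocyte sample, by 2.76 ± 0.23 on the log2 scale or 6.80-fold (limma, adjusted *p* = 8.80e-06). A second, short *Ldhb* entry (chr6:142502090-142505112) held 0.506 to 1.41% of the level of the first and was not used. *Ldha* (chr7:46845804-46855626, plus strand) was at 11333 to 24053 in WT-GFP astrocytes, with a median of 16482, and at 25044, 22243 and 21050 in GFP- cells. The ranges overlapped, and *Ldha* was not called. Its log2 difference was -0.40 (95% CI -0.84 to 0.04; limma, adjusted *p* = 0.149).

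Smallest values of *p* were limited by the number of samples in exact tests. By a 2-sided exact permutation test of the mean log2 levels, p was 0.00833, the smallest that 7 against 3 samples allow, for *Aldoc*, *Ldhb*, *Ppp1r3c*, *Pygb* and *Gbe1*. The exact p was 0.0417 for *Pygm* and for *Gys1*, 0.0917 for *Ldha* and 0.183 for *Pfkfb3*. With the whole reads behind the levels, edgeR, DESeq2, equal totals or equal upper quartiles, the differences of the 5 genes with an adjusted *p* under 0.05 kept their sign and their call: 4.81 to 5.24 for *Aldoc*, 2.30 to 3.00 for *Ldhb*, 1.78 to 2.56 for *Ppp1r3c*, 1.62 to 2.43 for *Pygb* and -1.58 to -0.80 for *Gbe1*. Equal upper quartiles also called *Ldha* (-0.86) and *Pfkfb3* (-1.21) lower and did not call *Pygm* (0.75) or *Gys1* (0.58). Equal totals did not call *Gys1* (0.87) either.

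**Figure D2:**
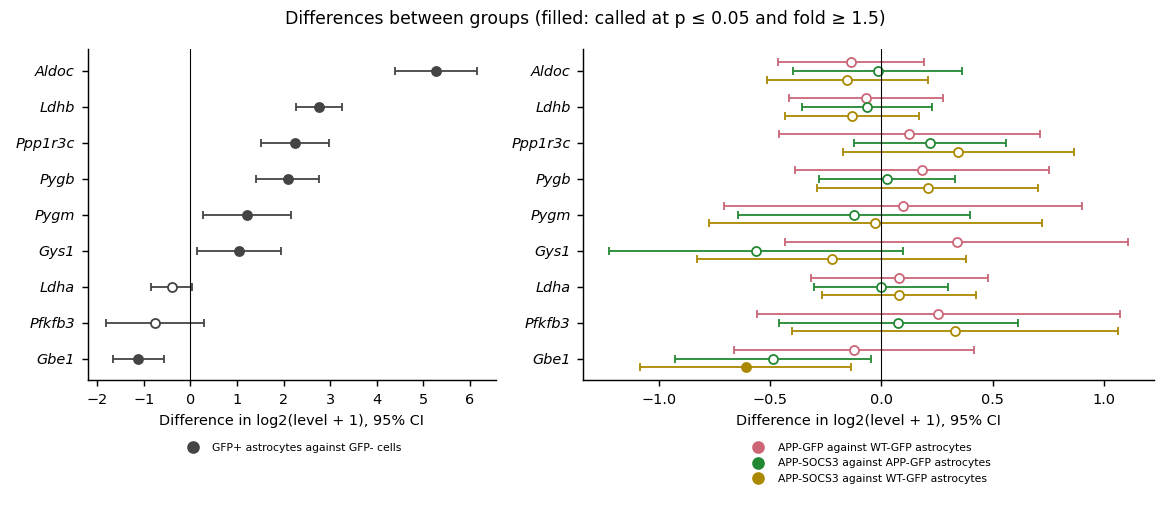
Difference in log2(level + 1) between groups (horizontal axis) for the 9 genes, with 95% CI bars; left, GFP+ astrocytes minus GFP- cells of WT-GFP mice; right, the 3 comparisons among astrocyte groups on a narrower axis. Filled points were called: 7 genes on the left, and on the right *Gbe1* alone, in APP-SOCS3 against WT-GFP astrocytes.

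The start of the *Ldha* and *Ldhb* genes was compared at the level of sequence, because their ratio differed between the sorted fractions, and *Ppp1r3c* is shown beside them as the glycogen gene with the largest difference among the 9. The sequences are from RefSeq, on GRCm38.p6, and cover the 250 bases before the annotated start of transcription, read 5′ to 3′ on the strand of the gene. Capitals mark ACGTG on either strand, where CACGTG counts as a match on both strands. The site bound by hypoxia-inducible factors has ACGTG or GCGTG as its core letters, and only ACGTG was searched.
Ldha chr7:46845554-46845803, plus strand: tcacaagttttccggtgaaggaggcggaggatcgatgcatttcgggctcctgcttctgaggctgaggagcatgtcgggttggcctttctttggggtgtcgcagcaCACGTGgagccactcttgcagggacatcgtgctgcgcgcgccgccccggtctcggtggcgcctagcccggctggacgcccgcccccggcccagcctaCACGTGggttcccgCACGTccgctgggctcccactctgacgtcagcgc
Ldhb chr6:142507958-142508207, minus strand: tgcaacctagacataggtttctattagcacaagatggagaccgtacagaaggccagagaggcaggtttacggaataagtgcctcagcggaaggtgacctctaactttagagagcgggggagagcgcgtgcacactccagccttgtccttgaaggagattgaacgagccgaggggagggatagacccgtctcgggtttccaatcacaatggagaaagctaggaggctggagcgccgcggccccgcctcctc
Ppp1r3c chr19:36736605-36736854, minus strand: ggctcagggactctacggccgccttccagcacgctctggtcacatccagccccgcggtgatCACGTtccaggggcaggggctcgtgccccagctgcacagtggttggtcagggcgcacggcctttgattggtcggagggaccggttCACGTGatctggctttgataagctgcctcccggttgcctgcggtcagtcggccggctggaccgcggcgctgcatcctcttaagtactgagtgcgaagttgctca

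The *Ldha* window held 5 matches to ACGTG at 3 places, the *Ppp1r3c* window 3 matches at 2 places, and the *Ldhb* window none. *Pygb*, *Pygm* and *Pfkfb3* had 1 match each, and *Gys1*, *Gbe1* and *Aldoc* none, so that 5 of the 9 windows held the letters, against 16.6% of the windows of 27025 genes. The letters TTCNNNGAA, the palindrome that STAT proteins recognize, were in 0 of the 9 windows and in 7.18% of all windows. Both motifs were searched on both strands, and a match or its lack says nothing about binding. For the 9 genes the listed start nearest the deposited gene was used, and for the shares the first listed start of each gene. The shares cover genes whatever their expression, so they are a description and no test of enrichment. The *Ldhb* and *Aldoc* windows, without ACGTG, do contain GCGTG. The lack of ACGTG therefore does not mean that a window lacks the core letters of the hypoxia-inducible factor site.

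Ratios within a sample do not depend on the size factor. *Ldha*/*Ldhb* was 0.349 to 0.652 in WT-GFP astrocytes, with all 7 samples holding more *Ldhb*, and 3.49, 4.80 and 5.79 in GFP- cells. The mean log2 ratio was -0.96 ± 0.34 (SD, n = 7) against 2.20 ± 0.37 (n = 3), an 8.97-fold difference (2-sided exact permutation test, p = 0.00833, adjusted over the 12 ratio comparisons p = 0.05). *Aldoc*/*Aldoa* compares aldolase C with the ubiquitous aldolase A. It was 5.27 to 7.48 in WT-GFP astrocytes and 0.860, 0.484 and 0.182 in GFP- cells, with mean log2 ratios of 2.71 ± 0.19 and -1.24 ± 1.13. That 15.4-fold difference had the same exact p of 0.00833 and an adjusted p of 0.05. *Aldoa* itself was also called higher in astrocytes, by 1.32 ± 0.19 on the log2 scale. *Pygb*/*Pygm* varied from 1.11 to 3.53 in WT-GFP astrocytes and was 1.21, 1.22 and 1.16 in GFP- cells. This difference did not pass (exact p = 0.075, adjusted p = 0.3). With 1 WT-GFP or GFP- sample left out, the exact permutation p of both ratios was 0.0119 or 0.0278, the smallest that the remaining samples allow. At that floor neither ratio kept an adjusted *p* of 0.05 or less. The differences were then -3.36 to -3.00 for *Ldha*/*Ldhb* and 3.34 to 4.46 for *Aldoc*/*Aldoa*.

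**Figure D3:**
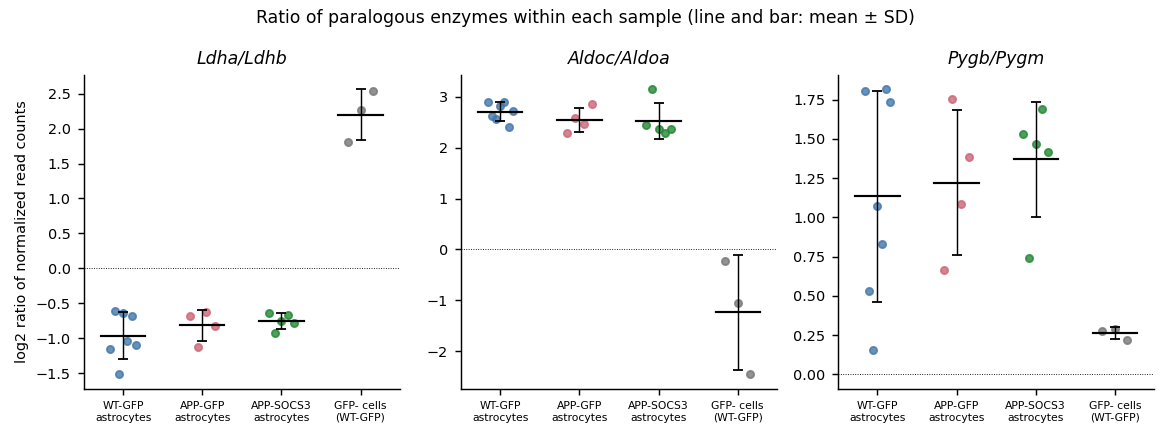
Log2 ratio of normalized read counts of *Ldha* to *Ldhb*, *Aldoc* to *Aldoa* and *Pygb* to *Pygm* (vertical axes, scaled separately) in each sample of the 4 groups, with means (lines) and SD (bars). *Ldha*/*Ldhb* is below 0 in all 16 astrocyte samples and above 0 in the 3 GFP- samples, *Aldoc*/*Aldoa* is the reverse, and the astrocyte groups overlap in all 3 ratios.

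Since GFP- cells hold uninfected astrocytes, the level left in them was set beside that of astrocyte markers. The mean level of the 10 astrocyte markers in GFP- cells was 6.71 to 16.6% of that in WT-GFP astrocytes, with a median of 7.48%. *Aldoc* was at 3.18%, below all 10 markers, and *Ldhb*, at 15.1%, lay within their range. *Ppp1r3c* (20.4%), *Pygb* (22.5%), *Pygm* (38.3%) and *Gys1* (49.8%) were above all 10 markers. *Ldha* (129%), *Pfkfb3* (169%) and *Gbe1* (211%) were higher in GFP- cells than in astrocytes, of which *Gbe1* alone was called. The 3 GFP- samples differed in makeup. Summed astrocyte markers were 53703, 26841 and 18627 in replicates 1, 2 and 3, summed endothelial markers 125567, 166773 and 202949, and summed microglial markers 95557, 122772 and 165309. *Aldoc*, *Ldhb*, *Gys1*, *Ldha* and *Gbe1* had their highest GFP- value in replicate 1 and their lowest in replicate 3. *Pfkfb3* was highest in replicate 3. The part of the makeup in these values was not tested.

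**Figure D4:**
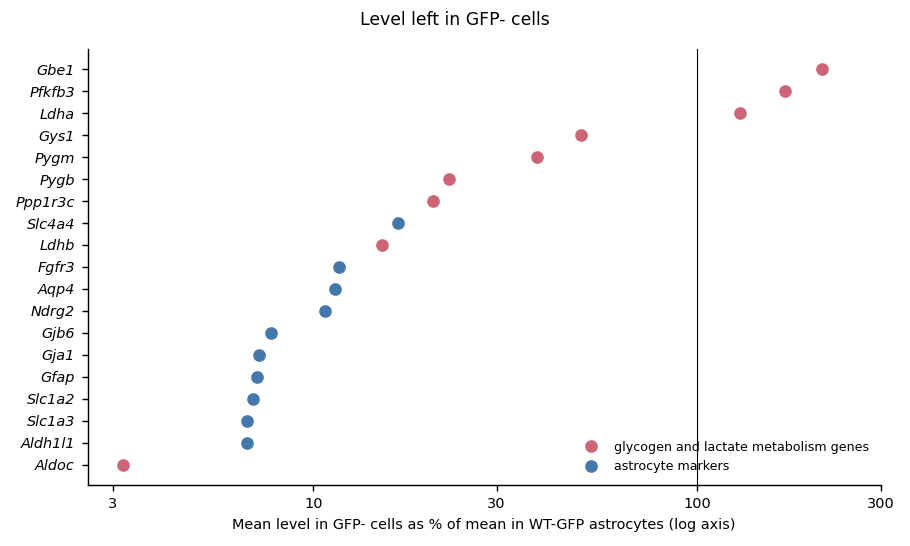
Mean level in GFP- cells (n = 3) as a percentage of the mean in WT-GFP astrocytes (n = 7), on a log axis, for the 9 genes and 10 astrocyte markers; the line marks 100%. *Aldoc* lies below the markers at 3.18%, *Ldhb* among them at 15.1%, and the other 7 genes above them, with *Ldha*, *Pfkfb3* and *Gbe1* past 100%.

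The second comparison, APP-GFP against WT-GFP astrocytes, asks what changes in astrocytes of mice with the APP/PS1dE9 transgenes. None of the 9 genes was called, and none had an unadjusted *p* under 0.05 in limma, against 2.23% called of 22969 genes tested. The count was also 0 with edgeR and with DESeq2. *Aldoc* was at 282476, 356769, 341171 and 347925 in APP-GFP astrocytes, all inside the WT-GFP range of samples. Its log2 difference was -0.14 (95% CI -0.47 to 0.19). *Ldhb* was at 29089, 37839, 34628 and 27546 and *Ldha* at 18069, 17340, 22504 and 15538, with log2 differences of -0.07 (95% CI -0.41 to 0.28) and 0.08 (95% CI -0.32 to 0.48). With the deposited scaling the intervals of these 3 genes exclude a 1.5-fold change in either direction. Intervals with the other scalings are not given here.

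Intervals were wider for the glycogen genes. *Pygb* was at 13450, 16451, 11627 and 16494 in APP-GFP astrocytes (difference 0.18, 95% CI -0.39 to 0.75) and *Pygm* at 8493, 4865, 5488 and 6326 (0.10, 95% CI -0.71 to 0.90). *Gys1* was at 1336, 1944, 653 and 1139. Replicates 1 and 2 were at or above the highest WT-GFP sample, and the difference was 0.34 (95% CI -0.43 to 1.11). *Ppp1r3c* (6610, 5366, 4902 and 4498), *Gbe1* (751, 1029, 804 and 729.7) and *Pfkfb3* (615, 903, 662 and 575) also overlapped with WT-GFP astrocytes, with differences of 0.13, -0.12 and 0.26. The adjusted *p* of all 9 genes was 0.999 in limma.

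The third comparison, APP-SOCS3 against APP-GFP astrocytes, which shares its APP-GFP samples with the one before, asks which genes change when SOCS3, an inhibitor of the JAK2-STAT3 pathway, is expressed in astrocytes of APP mice. None of the 9 genes was called, against 5.70% of 22844 genes tested, and 1 had an unadjusted *p* under 0.05. The count was 0 with edgeR and 1 with DESeq2. *Gbe1* was that gene with limma. It was at 487, 731, 514, 609 and 617 in APP-SOCS3 astrocytes. Only the highest of these samples reached the range of APP-GFP astrocytes, whose lowest was 729.7. The log2 difference was -0.49 ± 0.20 (limma, adjusted *p* = 0.75), a 1.40-fold lower level, under the fold threshold. The 2-sided exact permutation p was 0.0238. *Gys1* was at 672, 890, 621, 1104 and 792 in APP-SOCS3 astrocytes. Its difference of -0.56 (95% CI -1.22 to 0.10; limma, adjusted *p* = 0.816) was not called. DESeq2 called it (-0.62, adjusted *p* = 0.674), as did limma without APP-GFP replicate 3 (-0.85, adjusted *p* = 0.743), the APP-GFP sample with the lowest *Gys1*.

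The remaining genes were close between APP-SOCS3 and APP-GFP astrocytes. *Ldha* was at 21861, 17512, 19061, 16356 and 16607 in APP-SOCS3 astrocytes, with a difference of 0.00 (95% CI -0.30 to 0.30). *Ldhb* was at 34014, 33158, 32086, 25978 and 28605 (-0.06, 95% CI -0.36 to 0.23), *Aldoc* at 348211, 464084, 324280, 253998 and 280507 (-0.02, 95% CI -0.40 to 0.36), and *Pygb* at 14032, 16250, 12957, 16427 and 13667 (0.02, 95% CI -0.28 to 0.33). *Ppp1r3c* was at 5634, 7515, 5140, 6051 and 6698 (0.22, 95% CI -0.12 to 0.56). For these 5 genes a 1.5-fold change lay outside the interval with the deposited scaling. *Pygm* was at 4858, 9712, 4675, 5095 and 5128, with replicate 2 far above the other 4 (-0.12, 95% CI -0.64 to 0.40), and *Pfkfb3* at 656, 812, 529, 1060 and 624.9 (0.08, 95% CI -0.46 to 0.61).

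Set against WT-GFP astrocytes, a comparison that shares samples with both of the others, 1 of the 9 genes was called, against 5.21% of 22958 genes tested. *Gbe1* fell by 0.61 ± 0.22 on the log2 scale in APP-SOCS3 astrocytes (95% CI -1.08 to -0.14), 1.53-fold. The adjusted *p* was 0.712 in limma, and the 2-sided exact permutation p was 0.0139. It was called by edgeR (-0.60) and DESeq2 (-0.64) as well. The group means were 920.4 ± 243 (n = 7) for WT-GFP, 828.7 ± 137 (n = 4) for APP-GFP and 592 ± 96.7 (n = 5) for APP-SOCS3 astrocytes. APP-SOCS3 samples overlapped with the lower WT-GFP samples. With equal upper quartiles the difference was -0.26 and was not called, and without WT-GFP replicate 1 or 6 or APP-SOCS3 replicate 1 or 3 it was -0.56 to -0.52, under 1.5-fold. *Gbe1* was highest in GFP- cells, and the summed endothelial and microglial markers that GFP- cells are rich in were lowest in APP-SOCS3 astrocytes (microglial markers 6968 to 12024, against 9266 to 31469 in WT-GFP and 12718 to 61777 in APP-GFP astrocytes). With the mean endothelial marker level as a covariate the difference was -0.94, and with microglial markers it was -0.72, both called (limma, adjusted *p* = 0.908 and 0.9997). Against APP-GFP astrocytes it was -0.40 and -0.28 with these covariates, neither called. The marker levels themselves differ between these groups, and the part of endothelial or microglial RNA in the *Gbe1* difference was not tested.

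No ratio was called among the astrocyte groups. The mean log2 *Ldha*/*Ldhb* was -0.96 ± 0.34 (SD) in WT-GFP astrocytes, -0.82 ± 0.22 with APP-GFP and -0.75 ± 0.11 with APP-SOCS3, and *Ldhb* exceeded *Ldha* in all 16 samples. The exact permutation p for the 3 comparisons was 0.213 to 0.627, adjusted p = 0.543 to 0.752. Mean log2 *Pygb*/*Pygm* was 1.14 ± 0.67, 1.22 ± 0.46 and 1.37 ± 0.37 and mean log2 *Aldoc*/*Aldoa* 2.71 ± 0.19, 2.55 ± 0.24 and 2.52 ± 0.36 in the same groups. Without APP-SOCS3 replicate 2, *Aldoc*/*Aldoa* was lower in APP-SOCS3 than in WT-GFP astrocytes by 0.34 (difference -0.34, exact permutation p = 0.0121, adjusted p = 0.0485). With all 5 samples it was -0.18 (exact permutation p = 0.271).

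Over the 16 astrocyte samples some of the 9 genes varied together. As a description with no test, Pearson's r of log2 levels was 0.79 between *Ldhb* and *Aldoc*, 0.73 between *Pygb* and *Ppp1r3c* and 0.71 between *Pygb* and *Pfkfb3*, and with group means removed it was 0.78, 0.72 and 0.69. *Ldha* went against *Pygb* (r = -0.62) and *Pfkfb3* (r = -0.56). The points share depth and preparation: with genes detected per sample r was -0.74 for *Ldhb* and -0.61 for *Aldoc*, and with the astrocyte marker level it was 0.83 for *Pygb* and -0.61 for *Ldha*. Among 12166 genes whose mean over these 16 samples was 100 or more, the genes most like *Ldhb* were *Rida*, *Clybl* and *Ywhaq* (r = 0.918, 0.905 and 0.901), and those most like *Aldoc* were *Cycs*, *Ak1* and *Vps29* (0.883, 0.878 and 0.856). *Gbe1* was most like *Ceacam1*, *Dpp6* and *Leprot* (0.783, 0.768 and 0.762), the lowest of the values given here for most alike genes. Such values are the top of 12166 genes over 16 samples, where high r can arise without any relation, and none was tested. *Pygm* followed *Adpgk*, *Papd4* and *Lin7c* (0.902, 0.882 and 0.861), *Ppp1r3c* followed *Zcchc4*, *Tmc7* and *Il17ra* (0.934, 0.925 and 0.916), and *Pfkfb3* followed *Btrc*, *Hip1r* and *Tbc1d10b* (0.891, 0.864 and 0.833). *Ldha* was most like *Hist1h2bc* and *Gstt1* (0.896 and 0.894), and *Pygb* most like the unnamed entry inside its own gene (0.988) and, among named genes, *Mtmr3* (0.954).

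Other genes of the same pathways, also listed with earlier results of these data known, are described beside these results. Of 62 such genes, 60 were tested in GFP+ astrocytes against GFP- cells, 23 were called higher and 13 lower, against 9.25% and 33.5% of all genes tested, and their median log2 difference was 0.25. With 4 other scalings 31 to 37 were called, and the directions below are those of the deposited scaling. The 6 genes of lactate transport and sensing were all called lower in astrocytes, with a median of -4.68, where 33.5% of all genes were called lower and their median was -1.31. They include the monocarboxylate transporters *Slc16a1*, *Slc16a3* and *Slc16a7*, *Bsg* and *Emb* (basigin and embigin, which accompany monocarboxylate transporters to the membrane) and *Hcar1* (the lactate receptor). *Slc16a1* was at 392 to 2284 in WT-GFP astrocytes and at 5038, 9673 and 8764 in GFP- cells (difference -2.60 ± 0.47; limma, adjusted *p* = 0.0019). *Bsg* remained abundant in WT-GFP astrocytes, at 20928 to 73213, against 75537, 109292 and 117750 in GFP- cells. GFP- cells had higher endothelial markers, and the part of endothelial RNA in these differences was not tested. *Slc16a7*, *Slc16a3* and *Hcar1* were at most at 7.79, 61.4 and 74.4 in WT-GFP astrocytes and at least at 166, 311 and 122 in GFP- cells. Several astrocyte samples were at or near 0 for these 3 genes, so their fitted differences of -6.88, -5.63 and -5.07 depend on the value of 1 added before taking logs.

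Within glycolysis and glucose uptake, 9 of 16 genes were called higher and 3 lower, where 9.25% of all genes tested were called higher and 33.5% lower. Those shares of all genes apply to each list below. *Pfkm*, a phosphofructokinase, was at 11534 to 17962 in WT-GFP astrocytes and at 3268, 2078 and 2131 in GFP- cells (2.51 ± 0.18; limma, adjusted *p* = 7.05e-06). Among 15 tested regulators of glycogen, 4 were called higher and 3 lower. The glycogen-targeting subunits of protein phosphatase 1 split. *Ppp1r3g* was at 2462 to 4183 in WT-GFP astrocytes and at 181, 66.5 and 104 in GFP- cells (4.84 ± 0.31; limma, adjusted *p* = 7.05e-06). *Ppp1r3b* was at 0 in 4 of the 7 astrocyte samples and at most at 121, against 1227, 878 and 967 in GFP- cells (-7.50 ± 1.75; limma, adjusted *p* = 0.00809). Mean levels of *Ppp1r3b* were 28.3 in WT-GFP astrocytes and 1024 in GFP- cells, and with these zeros the fitted difference depends on the value of 1 added before taking logs. *Phkg1*, a catalytic subunit of phosphorylase kinase, was higher by 3.88 ± 0.32, and the entry named *Pgm2*, a phosphoglucomutase, by 2.51 ± 0.23. That entry (chr4:99929451-99987294) does not overlap the gene that GENCODE M21 calls *Pgm2*, so the gene behind this symbol is uncertain. In glycogen synthesis 2 of 5 tested genes were called, in glycogen breakdown 1 of 3 and in pyruvate fate 6 of 11, all higher. No gene of glycogen breakdown had an adjusted *p* under 0.05 in limma. Of the 4 enzymes that set fructose 2,6-bisphosphate besides *Pfkfb3*, 1 was called higher and 1 lower.

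Among the astrocyte groups few pathway genes were called, and none had an adjusted *p* under 0.05. In APP-GFP against WT-GFP astrocytes 1 of 60 was called (2.23% of all genes), *Phka2*, a regulatory subunit of phosphorylase kinase. It was at 65.2, 223, 97.9 and 327 in APP-GFP and at 186 to 738 in WT-GFP astrocytes (-1.35 ± 0.55; limma, adjusted *p* = 0.999). In APP-SOCS3 against APP-GFP astrocytes 2 of 59 were called (5.70% of all genes). *Nhlrc1*, the ubiquitin ligase malin that acts on glycogen metabolism, was higher (0.97 ± 0.37; limma, adjusted *p* = 0.69), at 1245, 791, 944, 1227 and 1538 against 969, 239, 653 and 694. *Bsg* was lower (-0.68 ± 0.30; limma, adjusted *p* = 0.793), at 23749, 22176, 23324, 17679 and 14724 against 21622, 53555, 47044 and 19201. *Bsg* was also the 1 gene of 59 called in APP-SOCS3 against WT-GFP astrocytes, where 5.21% of all genes were called (-0.73 ± 0.26; limma, adjusted *p* = 0.705). In GFP- cells *Bsg* was at 75537 to 117750, and the APP-GFP samples with the 2 highest *Bsg* levels were replicates 2 and 3. *Bsg* is also abundant in endothelium, and the part of endothelial RNA in this difference was not tested.

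**Figure D5:**
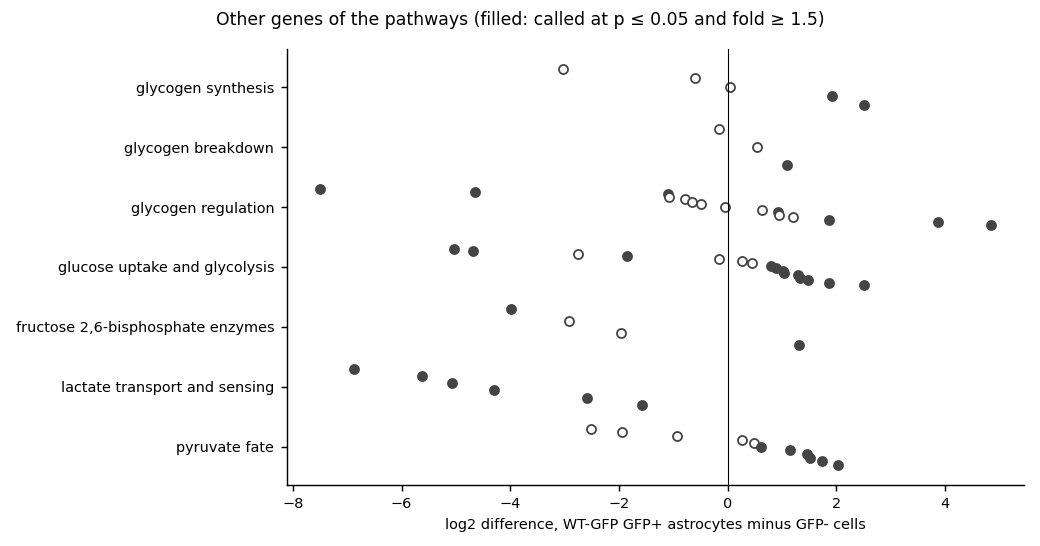
Log2 difference, GFP+ astrocytes minus GFP- cells, in WT-GFP mice (7 and 3 samples, horizontal axis) for the 60 tested genes of 7 pathway lists (rows); each point is a gene, filled where called. All 6 genes of lactate transport and sensing lie left of 0 and are called, and genes of glycolysis lie on both sides with 9 called higher.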

How the data were processed

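RNA from FACS-isolated cells of 19 samples was sequenced. The authors aligned reads with STAR (2.4.0) to mm10, counted them on constitutive regions of FAST DB genes and deposited read counts divided by DESeq2 size factors, a signal per gene. The submitters' processing notes also name FastQC, Picard and SAMtools. Dividing each column by the value of 1 read gave whole reads for 100% of values (tolerance 0.01). These reads served edgeR and DESeq2 as alternatives. 0 sample columns were left unused, and 34671 of 60567 genes have no symbol.

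Levels were tested as log2(level + 1), with a pseudocount of 1, in limma (trend) for genes averaging 10 or more in either of the groups compared, in R 4.3.3 with limma 3.58.1, edgeR 4.0.16 and DESeq2 1.42.0. The study's thresholds (unadjusted p no higher than 0.05 and a 1.5-fold or larger change) set the calls, with Benjamini-Hochberg adjusted p values over all genes tested beside them. Ratios and single values were compared by 2-sided exact permutation tests in Python 3.11.15 with scipy 1.17.1. Scripts were tested on simulated data. Alternatives were other pseudocounts, level minimums, scalings, tools and covariates, a replicate block, leaving out each sample and, chosen after seeing the data, libraries with over 20000 genes detected.

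The members and lists were chosen with earlier results of these data known. Pathway genes were named if they were among the 4 largest called differences in each direction between GFP+ and GFP- cells or called among the astrocyte groups, and genes named beside them were chosen after their values were seen. Lengths are from GENCODE M21 and promoters from RefSeq. The genes most like *Gys1* are not reported here.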

Additional observations from a re-analysis of the deposited data

Results flagged for a closer look

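Among 36 groups of 4 to 7 samples, 3 held a sample whose gap to its nearest neighbour was a large share of the range of the group, by Dixon's 95% critical value on log2 values. Chance flags about 1 in 20 groups. *Pygm* in APP-SOCS3 replicate 2 was at 9712, with the other 4 samples at 4675 to 5128, and the gap took 0.873 of the range (critical value 0.71). *Ppp1r3c* in WT-GFP replicate 2 was at 2075, the lowest of 7, with a gap of 0.736 of the range (critical value 0.568). *Aldoc*/*Aldoa* in APP-SOCS3 replicate 2 was 8.92, the highest of 5, with a gap of 0.831 (critical value 0.71). APP-SOCS3 replicate 2 thus appeared for both *Pygm* and *Aldoc*/*Aldoa*.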

How the results depend on the processing

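Calls in GFP+ against GFP- cells held for *Aldoc* and *Ldhb* in every alternative run. Without 1 sample 5 to 7 genes were called, and with the microglial or endothelial marker level as a covariate 4 and 3, and 12 and 20 of the pathway genes. Those covariates separate the groups themselves and left 0 of 26709 genes with an adjusted p under 0.05 (2338 and 4731 genes by the unadjusted rule in limma), against 8520 without them, 5194 with edgeR and 6110 with DESeq2. Libraries with over 20000 genes detected, chosen after seeing the data, gave 1.03 for *Gys1*, which was then not called, and turned the sign of *Aldoc* (0.023), *Ldhb* (0.021), *Pygb* (-0.11) and *Ppp1r3c* (-0.17) in APP-GFP against WT-GFP, of *Aldoc* (0.020) and *Ldhb* (0.016) in APP-SOCS3 against APP-GFP, and of *Aldoc* (0.043), *Ldhb* (0.037) and *Pygb* (-0.016) in APP-SOCS3 against WT-GFP astrocytes, none of them called. They left 1 pathway gene called in APP-SOCS3 against APP-GFP astrocytes. The causes of all these changes were not tested. The lowest level of any of the 9 genes in a sample was 262 (*Gys1*, GFP- replicate 3).

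Samples sharing a replicate number did not deviate together (correlations -0.2 to 0.248), so the replicate block is given here only. With the block, *Ldha*/*Ldhb* and *Aldoc*/*Aldoa* differed by -3.30 and 3.94 between GFP+ and GFP- cells (exact permutation p = 0.25, the smallest 3 pairs allow), and *Pygm* (1.22) and *Gys1* (1.06) were no longer called. It left 0 of the 9 genes were called in APP-SOCS3 against WT-GFP astrocytes (*Gbe1* -0.53) and 3 pathway genes, and 1 pathway gene in APP-SOCS3 against APP-GFP astrocytes. The block turned the sign of *Aldoc* (0.039), *Ldha* (0.031) and *Aldoc*/*Aldoa* (0.014) in APP-SOCS3 against APP-GFP, of *Ldha* (-0.067) and *Pygm* (-0.0085) in APP-GFP against WT-GFP, and of *Ldha* (-0.027) in APP-SOCS3 against WT-GFP astrocytes.

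No difference that turned sign under the other settings had been called. In APP-GFP against WT-GFP astrocytes they were *Pygm* with DESeq2 (-0.065) and edgeR (-0.027), *Aldoc* (0.037), *Gbe1* (0.050) and *Ldhb* (0.10) with equal upper quartiles, and *Ldha* (-0.069) with microglial markers. In APP-SOCS3 against APP-GFP astrocytes they were *Aldoc* (0.020) and *Ldha* (0.0013) with DESeq2, *Aldoc* (0.035) and *Ldha* (0.014) with edgeR, *Ldha* (0.0036) with equal totals, *Aldoc* (0.16), *Ldha* (0.17), *Ldhb* (0.11) and *Pygm* (0.052) with equal upper quartiles, *Aldoc* (0.28), *Ldha* (0.24) and *Ldhb* (0.26) with endothelial markers, and *Aldoc* (0.34), *Ldha* (0.23), *Ldhb* (0.27) and *Pygb* (-0.022) with microglial markers. In APP-SOCS3 against WT-GFP astrocytes they were *Aldoc* (0.20), *Gys1* (0.12), *Ldhb* (0.22) and *Pygm* (0.32) with equal upper quartiles, *Gys1* (0.10), *Ppp1r3c* (-0.011) and *Pygm* (0.23) with endothelial markers, and *Aldoc* (0.12), *Gys1* (0.050), *Ldhb* (0.065) and *Pygm* (0.66) with microglial markers. *Ldha* in GFP+ against GFP- cells was 0.025 with endothelial and 0.19 with microglial markers.

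Counts of calls moved as follows. DESeq2 called 1 of the 9 genes in APP-SOCS3 against APP-GFP astrocytes, and 2 pathway genes each in APP-GFP and APP-SOCS3 against WT-GFP, as did edgeR. An adjusted p alone called 0 of the 9 genes in APP-SOCS3 against WT-GFP astrocytes and 0 pathway genes in all 3 astrocyte comparisons. A fit over all 19 samples called 2 pathway genes in APP-GFP against WT-GFP. Equal upper quartiles called 0 of the 9 genes and 3 pathway genes in APP-SOCS3 against WT-GFP and 0 pathway genes against APP-GFP. Endothelial markers as a covariate gave 5 pathway genes in APP-SOCS3 against WT-GFP, and a minimum level of 100 or a pseudocount of 0.1 gave 1 in APP-SOCS3 against APP-GFP.

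Without 1 sample, 0 to 1 of the 9 genes were called in APP-SOCS3 against APP-GFP and against WT-GFP, and 0 to 1, 0 to 4 and 0 to 2 pathway genes in APP-GFP against WT-GFP and in APP-SOCS3 against APP-GFP and WT-GFP. Signs turned within -0.084 to 0.29 (*Pygm*), -0.078 to 0.20 (*Ppp1r3c*), -0.022 to 0.16 (*Ldha*), -0.15 to 0.0082 (*Ldhb*) and -0.093 to 0.27 (*Pygb*/*Pygm*) in the first, within -0.077 to 0.091 (*Pygb*), -0.32 to 0.032 (*Pygm*), -0.077 to 0.10 (*Ldha*), -0.14 to 0.016 (*Ldhb*), -0.14 to 0.074 (*Aldoc*), -0.065 to 0.21 (*Pfkfb3*), -0.038 to 0.33 (*Pygb*/*Pygm*), -0.041 to 0.13 (*Ldha*/*Ldhb*) and -0.18 to 0.077 (*Aldoc*/*Aldoa*) in the second, and within -0.22 to 0.16 (*Pygm*) and -0.022 to 0.16 (*Ldha*) in the third. *Aldoc*/*Aldoa* spanned -0.34 to -0.12 in APP-SOCS3 against WT-GFP. Between GFP+ and GFP- cells *Ldha*/*Ldhb* spanned -3.36 to -3.00 and *Aldoc*/*Aldoa* 3.34 to 4.46.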
